A study of Mus musculus with 4 samples.

Results

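The vascular endothelial growth factor (VEGF) family was followed in cultured mouse (Mus musculus) cells labelled as cavernous endothelial cells. These cells were grown from corpus cavernosum, the erectile tissue of the penis. The 10 members were taken by gene symbol from the 23238 symbols in the count files. No measured value entered that rule, though earlier results of these data were known when the members were chosen. They were 5 ligands (Vegfa, Vegfb, Vegfc, Figf and Pgf), 3 receptor tyrosine kinases (Flt1, Kdr and Flt4) and 2 co-receptors, the neuropilins Nrp1 and Nrp2. Figf is the older symbol of Vegfd, and every member had a row of its own in each file. All 10 passed the filter on low counts, which 16270 genes passed in all. The series holds 4 libraries, 2 from cells in normal glucose (replicates 1 and 2) and 2 from cells in high glucose (replicates 2 and 4), each treated for 72 hours. The culture medium, shared by both groups, was M199 supplemented with fetal bovine serum at 20%, heparin at 0.5 mg/ml and antibiotics (penicillin/streptomycin, 1%). The labels give no strain, animal age, glucose concentration or osmotic control. Whether the replicates were independent cultures or animals is not stated, so the p-values reflect the variation among these 4 libraries alone, and part of it may be technical.

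VEGF ligands are secreted dimers that drive the growth, permeability and survival of blood and lymph vessels. Vegfa acts mainly through Kdr (VEGFR2), the main signalling receptor of blood vessel endothelium. Flt1 (VEGFR1) binds Vegfa, Vegfb and Pgf tightly with weak kinase output, and a soluble form of it acts as a decoy. Vegfc and Figf act mainly on Flt4 (VEGFR3), the receptor of lymphatic endothelium. The neuropilins present ligands to these receptors and also bind class III semaphorins. In erectile tissue the endothelium lines the blood spaces, and VEGF signalling is known to help maintain it. Vegfa itself is a classical target of the hypoxia-inducible factors.

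The promoters of Vegfa, Flt1 and Kdr are shown because these genes are the main ligand and its 2 blood vessel receptors. Their fitted differences between the glucose conditions also differed in sign, below 0 for Vegfa and Flt1 and above 0 for Kdr. Each promoter shown is the 250 bases before the start site, from RefSeq on GRCm38.p6, on the minus strand and written 5′ to 3′. Capitals mark 3 kinds of match, searched on both strands. The GC box, bound by Sp1, was searched as GGGCGG. The core of the hypoxia response element, bound by the hypoxia-inducible factors, was searched as ACGTG and with its opening letter changed, as GCGTG. The TATA box, where transcription factor TFIID binds, was searched as TATAAA. No marked matches overlap in these windows.
Vegfa, chr17:46032378-46032627: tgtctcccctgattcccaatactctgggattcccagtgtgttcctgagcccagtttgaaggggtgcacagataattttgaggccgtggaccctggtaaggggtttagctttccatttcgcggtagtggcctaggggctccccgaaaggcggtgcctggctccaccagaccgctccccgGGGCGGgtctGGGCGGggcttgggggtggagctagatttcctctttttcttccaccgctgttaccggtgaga
Flt1, chr5:147726012-147726261: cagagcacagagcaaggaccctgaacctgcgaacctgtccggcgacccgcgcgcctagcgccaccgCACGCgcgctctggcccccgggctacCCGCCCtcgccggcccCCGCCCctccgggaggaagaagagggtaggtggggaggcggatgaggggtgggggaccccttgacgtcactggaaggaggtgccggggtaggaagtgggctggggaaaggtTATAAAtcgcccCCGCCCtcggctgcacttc
Kdr, chr5:75978456-75978705: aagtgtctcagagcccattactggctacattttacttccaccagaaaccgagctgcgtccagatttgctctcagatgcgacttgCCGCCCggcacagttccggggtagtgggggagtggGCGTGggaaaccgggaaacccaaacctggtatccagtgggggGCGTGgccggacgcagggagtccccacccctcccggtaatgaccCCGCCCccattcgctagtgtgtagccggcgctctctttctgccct

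The Vegfa window holds 2 GC boxes, starting 72 and 62 bases before the start site, and no hypoxia core in these letters. Bases farther upstream were not searched, so a hypoxia core there would be missed. RefSeq lists a second Vegfa start, 7206 bases inside the gene, whose window (not shown) holds 2 hypoxia cores, 218 and 211 bases before it, and 1 GC box. Flt1 holds 3 GC boxes, 1 hypoxia core 184 bases before the start and a TATAAA at 31 bases before it. Kdr holds 2 GC boxes and 2 hypoxia cores, at 131 and 89 bases before the start, and no TATAAA. These matches are common. Of 32851 windows of the same length before annotated mouse starts, 32.7% held a GC box, 38.6% a hypoxia core and 12.4% TATAAA in either direction. All 10 members matched an entry in the RefSeq table. A match is a description of letters, not a bound site.

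Total counts ran from 46571770 to 74971589 per library. Among the libraries, normal glucose replicate 2 was the least like the others: across genes its log2 values correlated at 0.976 to 0.978 with them, while the other 3 libraries correlated at 0.985 to 0.988 among themselves. The median gene differed between the normal glucose libraries by 0.348 on the log2 scale and between the high glucose libraries by 0.179. The labelled cell type was checked against its markers. Of 15 endothelial markers, 10 had a mean under 1 CPM (counts scaled to library size by TMM), and Cldn5 had 0 counts in 3 of the 4 libraries. Pecam1, an endothelial adhesion molecule, had a mean of 3.03 CPM, the endothelial cadherin Cdh5 5.25 and Vwf 0.793 CPM. Per length, the median of 10 fibroblast markers, among them Dcn, Col1a1 and Col1a2, lay between 49.99 and 58.0 CPM per kb of annotated exon in each library, and the median endothelial marker between 0.12 and 0.161. The median connective tissue marker thus far exceeded the median marker of the labelled cell type in every library. In bulk RNA, fewer cells of a type and less RNA per cell cannot be told apart.

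Vegfa was by far the most abundant member, and Kdr, its main receptor, the least. Levels were compared between members as CPM per kb of annotated exon. On that scale Vegfa had a mean of 339.5 over the 4 libraries, Nrp2 38.1, Vegfb 26.9, Vegfc 21.7, Figf 15.6, Nrp1 9.18, Flt4 5.89, Pgf 3.91, Flt1 1.35 and Kdr 0.13. Most neighbours in this order were separated in every library, with ranges that did not overlap. The exceptions were Nrp2 and Vegfb, where Nrp2 was higher in 3 of 4 libraries, and Vegfb and Vegfc, which were each higher in 2. The mean of Vegfa was 8.91 times that of Nrp2, and the mean of Flt1 10.4 times that of Kdr. With the longest annotated transcript as the length, Nrp1 (24.7) lay above Vegfc (21.7) and Figf (18.3), so the place of Nrp1 depends on the gene model. The length the authors' counting used is not given in the sources used here.

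**Figure D1:**
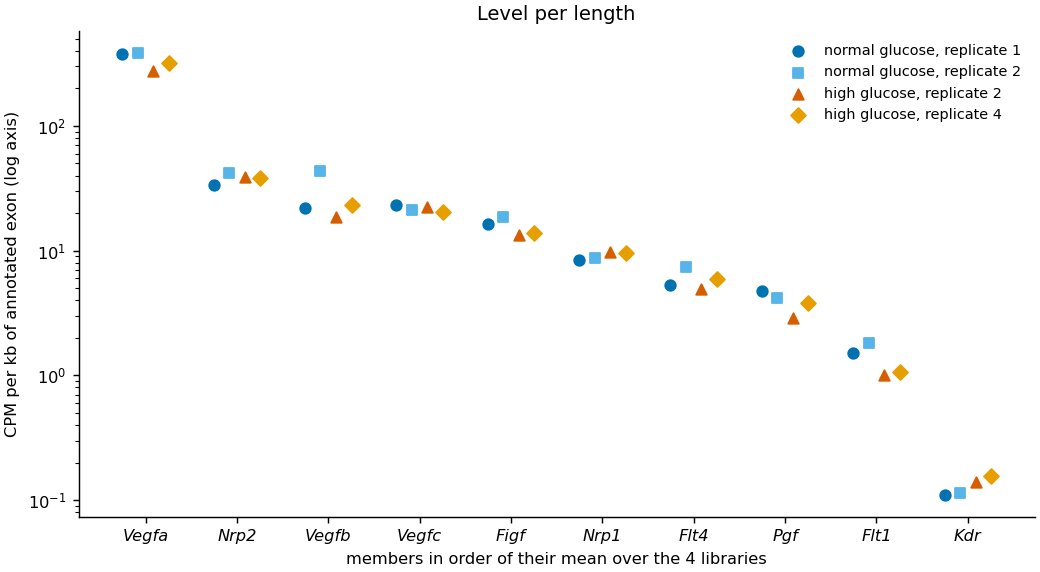
Level of each member in CPM per kb of annotated exon (log axis), 1 point per library, ordered by the mean over the 4 libraries. Vegfa lies highest in every library and Kdr lowest.

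Among the ligands, Vegfa made up most of the RNA per length whatever the glucose. Its share of the 5 ligands was 85.1% and 81.3% in replicates 1 and 2 of normal glucose, against 82.9% and 84.0% in replicates 2 and 4 of high glucose. The groups overlap in the share of Vegfa. That of Vegfc did not overlap, with 5.22% and 4.48% in normal and 6.68% and 5.29% in high glucose. This share also depends on the other ligands in the total, and the CPM of Vegfc itself overlapped between the groups. Pgf held between 0.856% and 1.07% of that pool in all libraries. Among the 3 receptor kinases, Flt4 held the largest share per length, 76.8% and 79.4% in normal and 81.1% and 82.7% in high glucose. Kdr held 1.597% and 1.22% in normal and 2.29% and 2.19% in high glucose, and Flt1 21.6% and 19.4% against 16.6% and 15.1%. The shares of Flt1, Kdr and Flt4 did not overlap between the groups. They are parts of the same total, so they are not separate results. The Kdr share rests on 45 to 109 reads per library, and the CPM of Flt4 overlapped between the groups. For scale, 16.2% of all genes were lower and 16.3% higher in CPM in both high glucose libraries. Of the neuropilins, Nrp2 held between 79.8% and 82.6%. The shares depend on the gene model. With the longest annotated transcript as the length, Nrp2 held 72.2% to 75.7%, Flt4 69.3% to 76.8% and Flt1 20.9% to 29.1%. The shares of the 3 receptor kinases did not overlap between the groups on that length either.

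High glucose was compared with normal glucose by the quasi-likelihood test of edgeR across all genes, with Benjamini-Hochberg adjustment. None of the 10 members passed an adjusted p of 0.05, where 0.0123% of all genes tested did. DESeq2 (0.455% of all genes called) and edgeR's exact test (0.688%) called 0 members too. At an unadjusted p under 0.05 there was 1 member, Flt1, which was lower, as were 3.23% of all genes. The members' median log2 fold change was -0.29, beside -0.0045 over all genes, with 7 of 10 below 0, where 50.8% of all genes were. Both high glucose libraries were below both normal glucose libraries for 4 members (Vegfa, Figf, Pgf and Flt1), where 16.2% of all genes were so placed. They were above for 2 (Kdr and Nrp1), where 16.3% of all genes were. The other 4 overlapped.

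**Figure D2:**
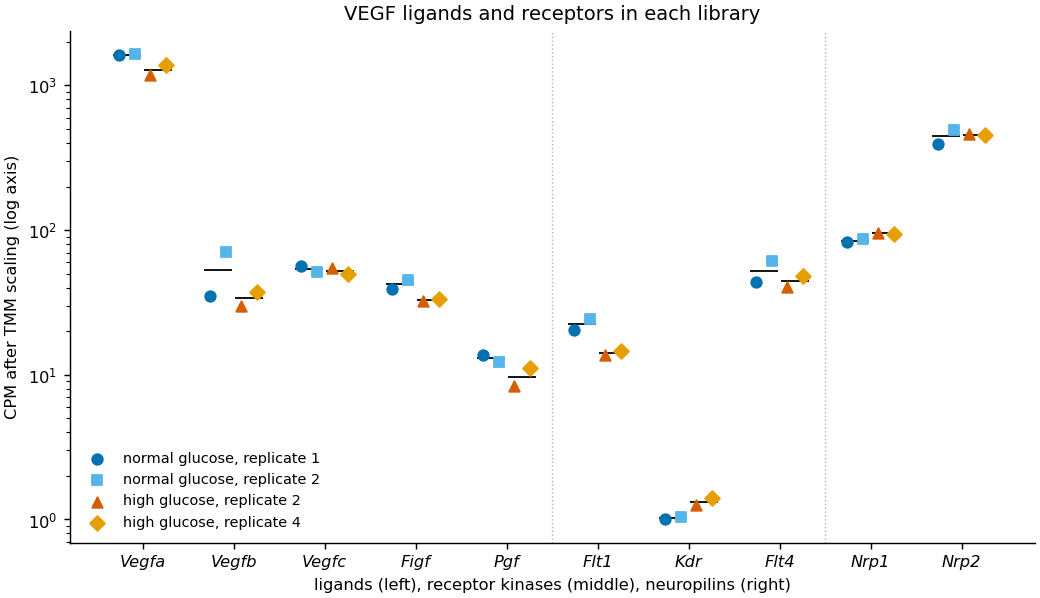
CPM of each member after TMM scaling (log axis), 1 point per library, with a line at each group's mean. Vegfa, Figf, Pgf and Flt1 are lower in both high glucose libraries, and Kdr and Nrp1 higher.

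All 5 ligands had a fitted log2 fold change below 0, with a median of -0.35, and 0 of 5 passed the test. Vegfa (chromosome 17, 46016993 to 46032369, minus strand, ENSMUSG00000023951), the main angiogenic ligand, had 1620.3 CPM in replicate 1 and 1636 CPM in replicate 2 of normal glucose. In high glucose it had 1186 CPM in replicate 2 and 1377 CPM in replicate 4, the order kept below. The normal glucose libraries were nearly equal, both high glucose libraries were lower, and the gap between the latter was wider than that between the former. Its log2 fold change was -0.35 (SE 0.18, 95% interval -0.75 to 0.06, unadjusted p = 0.0852, adjusted p = 0.955, edgeR). This corresponds to means of 1628 ± 10.7 and 1282 ± 135 CPM (SD, n = 2 each). Counting error was small here, with 71298 to 115047 reads per library and a 95% Poisson interval of at most 0.735% on either side. Counts per gene do not separate the splice isoforms of Vegfa, which differ in binding to heparin, and GENCODE lists 13 transcripts of it.

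Figf, which acts on Flt4 after proteolytic processing (chromosome X, 164373378 to 164402650, ENSMUSG00000031380), had 39.2 and 45.0 CPM in normal and 32.2 and 33.6 CPM in high glucose. The groups did not overlap, and the high glucose libraries lay close together (log2 fold change -0.35, SE 0.19, adjusted p = 0.97, edgeR). Pgf, placental growth factor, a ligand of Flt1 but not Kdr (chromosome 12, 85166635 to 85177790, ENSMUSG00000004791), had 13.8 and 12.2 CPM in normal and 8.30 and 11.1 CPM in high glucose. High glucose replicate 2 was the lowest and replicate 4 lay close under the normal range (log2 fold change -0.42, SE 0.23, adjusted p = 0.991). Without high glucose replicate 2 the Pgf value was -0.22, and without replicate 4 it was -0.65.

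Vegfb, a ligand of Flt1 (chromosome 19, 6982473 to 6987651, ENSMUSG00000024962), had 35.1 CPM in normal glucose replicate 1 and 70.2 CPM in replicate 2, against 30.1 and 37.5 CPM in high glucose. The groups overlapped, and only normal glucose replicate 2, the library that stood apart, was high. The 2 normal glucose libraries differed by 0.998 on the log2 scale, a gap at least as wide as that of 91.5% of genes tested. Its log2 fold change was -0.64 (SE 0.31, adjusted p = 0.948, edgeR) with all libraries and -0.06 without normal glucose replicate 2. Without normal glucose replicate 1 it was -1.05 (adjusted p = 1.5e-04), in a fit that called 16.2% of all genes. Vegfc, the main lymphangiogenic ligand (chromosome 8, 54077606 to 54187096, ENSMUSG00000031520), had 56.8 and 51.4 CPM in normal and 54.6 and 49.5 CPM in high glucose. Its groups interleaved, with a log2 fold change of -0.06 and a 95% interval of -0.47 to 0.35.

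Of the receptor kinases, Flt1 was lower and Kdr higher in both high glucose libraries, Flt4 overlapped, and 0 of 3 passed the test. Flt1 (chromosome 5, 147561604 to 147726011, minus strand, ENSMUSG00000029648) had 20.3 and 24.4 CPM in normal and 13.6 and 14.5 CPM in high glucose. The groups were apart by more than the gap within either, and the log2 fold change was -0.67 (SE 0.20, 95% interval -1.13 to -0.20). The unadjusted p was 0.0107 and the adjusted p 0.651 (edgeR), the lowest of the 10 members. Leaving out any 1 library kept the value between -0.79 and -0.53. Without normal glucose replicate 1 Flt1 passed the test (adjusted p = 0.00179), again in the fit that called 16.2% of all genes. Its unadjusted p was 0.141 without high glucose replicate 2 and 0.0889 without high glucose replicate 4. The counts do not separate the membrane receptor from the soluble decoy. Of 12 endothelial markers tested, 10 were below 0, where 50.8% of all genes were, with a median of -0.25, and 0 passed. Of these 12, 4 were lower in both high glucose libraries, where 16.2% of all genes were so placed, and 8 overlapped. Most were scarce, as 10 of the 15 listed had a mean under 1 CPM. The summed level of all 15 was 52.4 and 69.3 CPM in normal and 44.8 and 47.9 CPM in high glucose, without overlap. Esam made up most of that sum, and without it the sums were 19.17 and 23.2 against 19.15 and 18.03 CPM, so that the groups all but met. The part of these markers in the Flt1 value was not tested.

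Kdr, on the same chromosome (75932827 to 75978458, minus strand, ENSMUSG00000062960), had 1.00 and 1.03 CPM in normal and 1.26 and 1.41 CPM in high glucose. Both high glucose libraries were above both normal ones, though only 71, 45, 80 and 109 reads lay behind these values. The 95% Poisson intervals, which cover counting error only, were 0.781 to 1.26 and 0.753 to 1.38 CPM in normal, and 0.996 to 1.56 and 1.154 to 1.70 CPM in high glucose. These intervals of single libraries overlap, which is no test between the groups. The fit did not call a difference (log2 fold change 0.39, SE 0.34, 95% interval -0.39 to 1.17, adjusted p = 0.991, edgeR). Flt4 (chromosome 11, 49609263 to 49652739, ENSMUSG00000020357) had 43.8 and 61.1 CPM in normal and 40.6 and 48.5 CPM in high glucose. Its groups overlapped, with a log2 fold change of -0.24 (SE 0.22), and without normal glucose replicate 2 this was 0.02. Per length, Flt4 (5.89 CPM per kb) stood above the lymphatic markers Prox1 (0.156) and Lyve1 (0.0288, from 7, 4, 6 and 4 reads), and Pdpn, also made by fibroblasts, had 994.6 CPM per kb.

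Neither neuropilin passed the test. Nrp1, a co-receptor for Vegfa (chromosome 8, 128358604 to 128503363, ENSMUSG00000025810), had 83.0 and 86.2 CPM in normal and 95.9 and 94.3 CPM in high glucose. Both high glucose libraries were higher, and the spread within each group was among the narrowest of the members (log2 fold change 0.17, SE 0.17, 95% interval -0.22 to 0.56, adjusted p = 0.991, edgeR). Nrp2, the co-receptor for Vegfc and Figf (chromosome 1, 62703285 to 62818695, ENSMUSG00000025969), had 396 and 495 CPM in normal and 461 and 452 CPM in high glucose. Both high glucose values lay inside the normal range, with a log2 fold change of 0.04 and a 95% interval of -0.40 to 0.47. An intronic antisense gene, Gm29083, lies within Nrp2 but shares no exon base with it, and the microRNA gene Mir1903 lies in an exon of Nrp1.

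**Figure D3:**
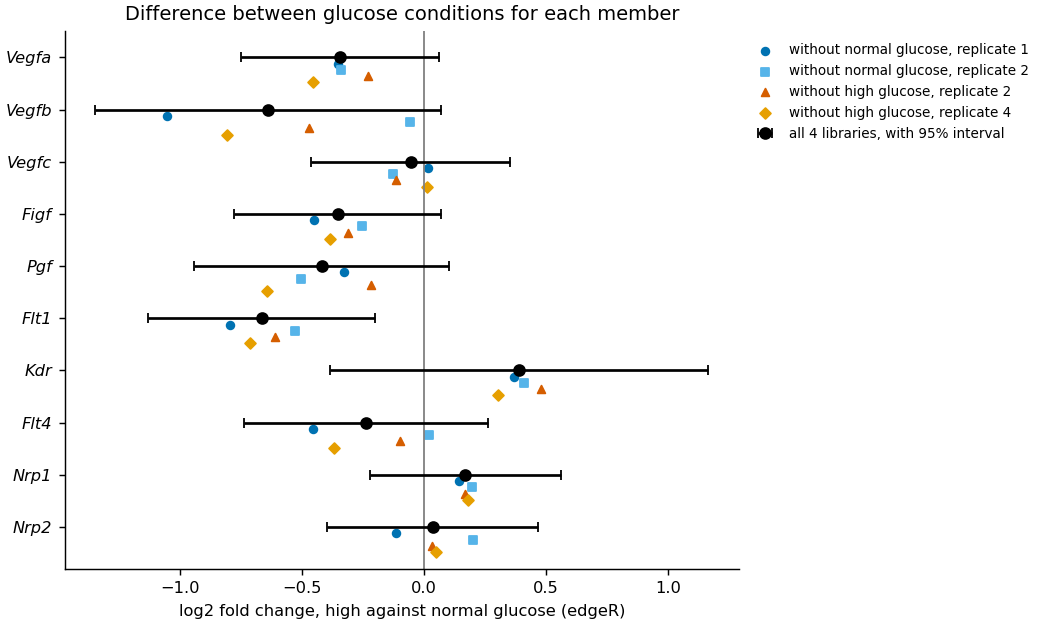
Log2 fold change of each member, high against normal glucose, with its 95% interval from all 4 libraries (black) and the value without each library (coloured). Only the interval of Flt1 lies wholly below 0, and Vegfb ranges from -1.05 to -0.06 with the library left out.

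Ratios between members within a library do not depend on the scaling of that library. They were chosen after the values were seen and are given as a description. The ratio of Flt1 to Kdr per length was 13.6 and 15.8 in normal and 7.27 and 6.90 in high glucose. The groups did not overlap, and the few Kdr reads limit the precision. Vegfa to Kdr, limited by the same few Kdr reads, was 3416 and 3339 in normal and 1991 and 2064 in high glucose. Vegfa to Flt1 went the other way, with 252 and 211 in normal and 274 and 299 in high glucose. Nrp2 to Nrp1 overlapped, at 3.95 and 4.75 in normal and 3.97 and 3.96 in high glucose.

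**Figure D4:**
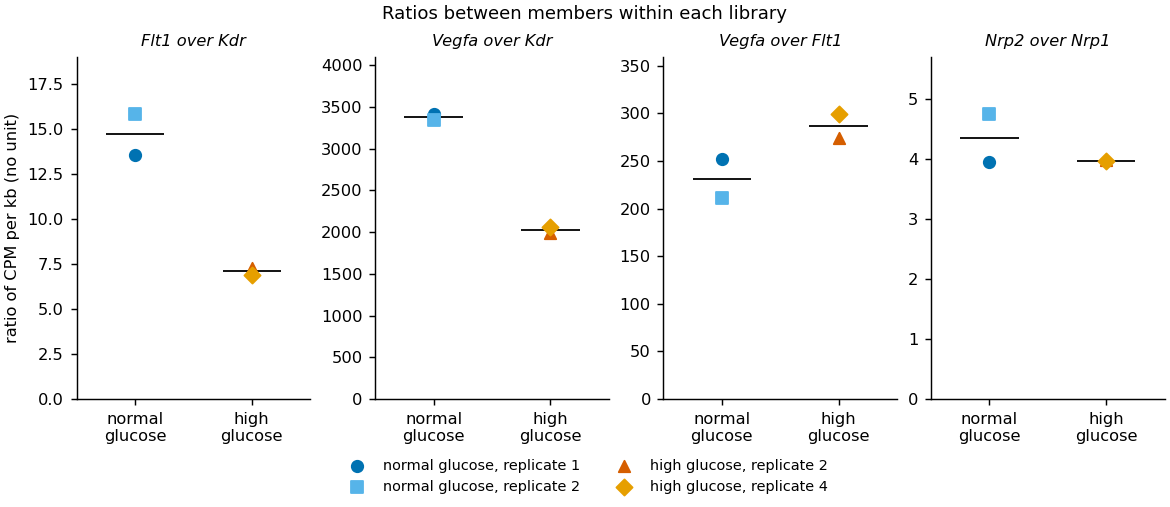
Ratios of CPM per kb between pairs of members, 1 point per library, with a line at each group's mean and axes from 0. Flt1 to Kdr is 13.6 and 15.8 in normal and 7.27 and 6.90 in high glucose, while Nrp2 to Nrp1 overlaps.

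Genes that rise in hypoxia, as Vegfa does, were mostly lower in high glucose as well, though 0 of 18 passed the test over all genes. Their median log2 fold change was -0.41, 16 of 18 were below 0, and 13 were lower in both high glucose libraries, as were 16.2% of all genes. Mxi1, a repressor that competes with Myc, had 87.7 and 106 CPM in normal and 56.8 and 57.3 CPM in high glucose (log2 fold change -0.76, SE 0.18). Ero1l, an oxidase of disulfide bond formation, had 2324 and 2018 against 1431 and 1349 CPM. The oxygen sensor Egln3, a prolyl hydroxylase that is itself hypoxia-induced, had 262 and 273 against 182 and 157 CPM. The list was drawn up with earlier results of these data known, so the shared direction is no independent support.

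Of 18 genes that control Vegfa RNA, 0 passed, 8 were above and 10 below 0, and the median was -0.04. Besides Egln3, the lowest p belonged to the prolyl hydroxylase Egln1, with 213 and 187 CPM in normal and 144 and 141 CPM in high glucose. The RNA-destabilising protein gene Zfp36l2 had 105 and 218 against 70.2 and 105 CPM, overlapping and high in normal glucose replicate 2. Hif1a, added after its value was seen, had a log2 fold change of 0.39 (SE 0.19, unadjusted p = 0.0801, edgeR), opposite in sign to Vegfa.

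Downstream of the receptors, the 40 signalling genes centred near 0, with a median of -0.05, 15 above and 25 below 0, and 0 passed. The lowest p belonged to Shb, an adaptor of Kdr signalling (11.97 and 14.2 against 6.67 and 9.19 CPM), and to the small heat shock protein gene Hspb1 (167 and 358 against 160.3 and 143 CPM). Pxn, the focal adhesion adaptor paxillin, had 170.2 and 293 against 167 and 181 CPM. Hspb1 and Pxn were high in normal glucose replicate 2. Of 22 receptor partners and trafficking genes, 0 passed, with a median of -0.05. Epn2, an endocytic adaptor, had 72.9 and 79.8 CPM in normal and 103.6 and 99.9 CPM in high glucose, Cd44 1113 and 1307 against 1031 and 931 CPM, and the heparan sulfate proteoglycan Hspg2 1104 and 1791 against 916 and 1312 CPM.

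Of the 7 genes that process VEGF-C and VEGF-D, 0 passed. Pcsk5, a proprotein convertase, had 58.3 and 55.5 CPM in normal and 81.7 and 96.8 CPM in high glucose, without overlap (log2 fold change 0.65, SE 0.18, adjusted p = 0.555, edgeR). The procollagen protease Adamts2 had 15.4 and 21.1 against 11.9 and 15.3 CPM. Adamts3, which cleaves VEGF-C, had 5.30 and 5.85 against 7.67 and 6.14 CPM.

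Of 16 genes that VEGF induces in endothelium, 0 passed, with 7 above and 9 below 0 and a median of -0.13. Apln, the peptide apelin, had 144 and 187 CPM in normal and 78.3 and 86.7 CPM in high glucose (log2 fold change -1.003, SE 0.20, adjusted p = 0.399, edgeR). The phosphatase Dusp5 had 43.5 and 67.5 against 32.3 and 34.2 CPM, while the adhesion molecule Vcam1 had 373 and 316 against 552 and 497 CPM. Esam, an adhesion molecule and the endothelial marker with the highest level per length (11.8 CPM per kb), had 33.3 and 46.1 CPM in normal and 25.6 and 29.9 CPM in high glucose.

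**Figure D5:**
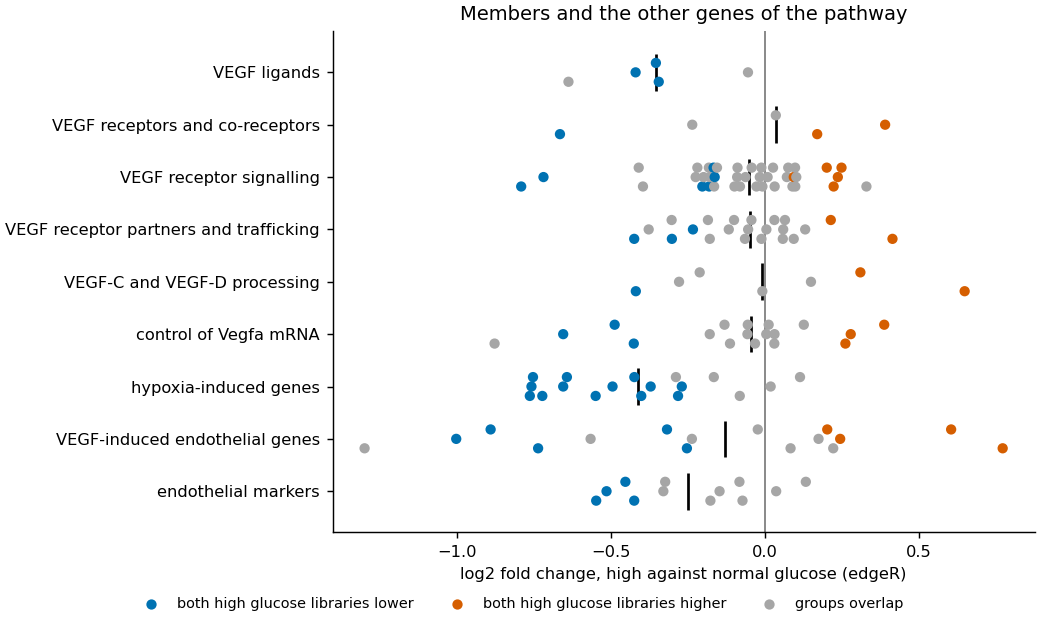
Log2 fold change, high against normal glucose, of each tested gene in the lists (points), with the list's median (line). The hypoxia-induced genes and the ligands lie mostly below 0, at medians of -0.41 and -0.35, while the signalling genes centre near 0.

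The fibroblast, mural, leukocyte and epithelial marker lists, for other cell types that the culture could hold, had 0 called genes each. Summed fibroblast markers were 9706 and 11673 CPM in normal and 11592 and 10644 CPM in high glucose, overlapping. The 12 pericyte and smooth muscle markers (among them Cspg4, Acta2 and Pdgfrb) summed to 554 and 771 against 563 and 572 CPM, with a median log2 fold change of -0.22. They went both ways, with 5 above and 7 below 0. In both high glucose libraries 4 were lower and 3 higher, where 16.2% and 16.3% of all genes were so placed. The 8 macrophage and leukocyte markers summed to 267 and 273 against 486 and 466 CPM. That sum was carried by Cd14 (229 and 221 against 439 and 422 CPM), with Cd68 and Adgre1 at means of 16.3 and 9.91 CPM and Ptprc, which defines leukocytes, at 91, 28, 26 and 96 reads. The neuronal tubulin Tubb3 had 14.7 and 19.5 against 9.29 and 9.31 CPM, without overlap (log2 fold change -0.88, SE 0.22, adjusted p = 0.506, edgeR). The 6 epithelial markers, among them Krt18, Cdh1 and Krt8, summed to 3.32 and 2.50 against 2.65 and 2.10 CPM. The part of these cells in the members' values was not tested.

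The genes whose pattern over the 4 libraries was most like that of Vegfa, by Euclidean distance of centred log2 CPM among 9999 other genes with a mean of at least 5 CPM, were Cpeb2 (distance 0.0272), Lsm11 (0.0355) and Inadl (0.0362). For Flt1 they were Fbxo10 (0.0665), Gys1 (0.0748) and Adam33 (0.101), and for Pgf they were Agpat5 (0.0845), Trappc5 (0.0972) and Chsy1 (0.0997). With 4 libraries such closeness was common, as 299 genes lay within 0.2 of Vegfa, 62 of Flt1 and 41 of Pgf. Gys1, muscle-type glycogen synthase, had 278 and 348 CPM in normal and 183 and 194 CPM in high glucose. Its likeness to Flt1 follows from the way it was picked and is no separate result.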

How the data were processed

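The authors deposited raw counts, as whole numbers by gene symbol, in a file for each library, per the file headers. TopHat, edgeR and mm10 appear in the submitters' processing notes with neither version nor role, and the libraries came from 1.3 µg of total RNA with a SMARTer kit, per the labels. How reads were counted, with which gene models and strand setting, is not given in the sources used here. Rows sharing a symbol (35 symbols) were summed. Counts were filtered with filterByExpr, scaled by TMM and tested in edgeR 4.0.16 (glmQLFit, glmQLFTest, group as the only term, two-sided, R 4.3.3), with Benjamini-Hochberg adjustment over 16270 genes and a threshold of 0.05. The script was tested on simulated data. Total counts were 46571770 to 74971589 per library, and with 2 libraries a group the spread between libraries limits the precision more than counting error does for members other than Kdr. Alternatives used DESeq2 1.42.0, limma-voom (limma 3.58.1), other scalings and filters, and each library left out. Leaving out Rn45s and the newer quasi-likelihood method were added after seeing the data. Coordinates and exon lengths are from GENCODE vM21 on GRCm38, the assembly of mm10. At most 0.776% of the 32-base stretches of any member's transcripts occur in another gene, so shared reads are few.

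The members and gene lists were chosen with earlier results of these data known. Named were all members, the 3 genes of each pathway list with the smallest unadjusted p, the 3 markers of each cell type with the highest mean, Pecam1, Cdh5 and Vwf, and the 3 genes nearest in pattern to Vegfa, Flt1 and Pgf. Cldn5, Lyve1, Ptprc and Hif1a were chosen after their values were seen. The sum of 1 further marker list is not reported here.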

Additional observations from a re-analysis of the deposited data

How the results depend on the processing

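No paired analysis was possible because replicate number 2 is the only one found in both groups. The number of genes past the threshold was 2 with all libraries, 74 with DESeq2, 112 with edgeR's exact test and 127 with no filter on low counts. Leaving out 1 library gave 35 to 2708 genes and 0 to 2 members (Vegfb and Flt1, both lower, without normal glucose replicate 1), in fits where the lone library of a group is assumed to vary like the other group's pair. In the 11 other settings 0 members passed and each member kept its direction. Of 150 alternative log2 fold changes of the members, 4 turned in sign, all with a library left out. Over those fits Vegfc ran from -0.13 to 0.018, Flt4 from -0.46 to 0.021 and Nrp2 from -0.12 to 0.20 on the log2 scale, and the cause was not tested. Vegfa ran from -0.46 to -0.23 and Flt1 from -0.79 to -0.53. Library totals as the only scaling moved Vegfa to -0.30 and Flt1 to -0.62. Depth limits Kdr, with 45 to 109 reads per library.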
